A study of Rattus norvegicus with 12 samples.

Results

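Collagen chains are the proteins that wind into the triple helices of the extracellular matrix. They were described here in neonatal rat ventricular myocytes as the genes whose symbol reads Col, a number, the letter a and a number, and 43 of the 18469 genes in the deposited tables fit that rule. By the structure of the protein they fall into 8 classes. There were 11 fibrillar chains, 8 of basement membranes, 6 of beaded filaments, 8 fibril-associated, 3 of short-chain networks, 1 of anchoring fibrils, 4 transmembrane and 2 others.

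The RNA came from Sprague-Dawley rat ventricular myocytes taken from newborn animals, grown in DMEM with insulin-transferrin-selenium, penicillin and streptomycin. Total RNA was sequenced from 4 groups of 3 libraries each. Cells transfected with a negative control siRNA were either left without further treatment (siNeg) or given phenylephrine for 36 h starting 12 h after transfection (siNeg.PE). Cells transfected with an siRNA against Slc25a26, a carrier that brings S-adenosylmethionine into mitochondria, were likewise left without it (siSlc25a26) or given it (siSlc25a26.PE). Phenylephrine (PE) is an agonist of alpha-adrenergic receptors and is used to make cultured cardiac myocytes grow in size. The total count per library ran from 25415568 to 26870531 in siNeg, 24770972 to 26171547 in siNeg.PE, 27708544 to 28709049 in siSlc25a26 and 26792198 to 27774608 in siSlc25a26.PE. The labels do not say that the libraries of a group came from separate cultures, so the p-values measure the spread between these samples.

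Each collagen is built from chains with long glycine-rich repeats, and the chains of a type trimerise before they leave the cell. Fibrillar collagens, led by types I and III, form the load-bearing interstitial fibres of the heart and are made mainly by fibroblasts, while type IV forms a sheet-like network in the basement membrane that surrounds each myocyte and vessel. Type VI forms beaded filaments near the cell surface, fibril-associated collagens decorate the fibres, and types XV and XVIII carry sugar chains in the basement membrane zone.

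The labels were checked on 3 genes. Slc25a26 was at 33.7, 32.3 and 29.4 CPM in siNeg, 114, 106 and 86.9 in siNeg.PE, 15.7, 14.7 and 14.7 in siSlc25a26 and 101, 104 and 98.2 in siSlc25a26.PE, where CPM is the count scaled to library size after TMM normalization. Its level in siSlc25a26 lay below siNeg in every library, while both groups given PE were high and overlapped. In edgeR, with p-values adjusted by Benjamini-Hochberg over all tested genes, the siRNA effect without PE was log2 fold change -1.08 (adjusted p = 1.08e-05). Under PE it was -0.01 (adjusted p = 0.969). A lower Slc25a26 level was therefore not seen under PE, and comparisons that use siSlc25a26.PE describe the libraries labelled siSlc25a26.PE. Nppa and Nppb, natriuretic peptide genes that mark myocyte growth, rose with PE. Nppa was at 132, 122 and 111 CPM in siNeg, 3200.1, 3385 and 2436 in siNeg.PE, 329, 282 and 196 in siSlc25a26 and 5889, 6225 and 6092 in siSlc25a26.PE, and neither PE group overlapped its group without PE. For Nppb the log2 fold change with PE was 5.37 in siNeg and 5.32 in siSlc25a26.

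Promoter sequences were available from RefSeq (GRCr8) for 34 of the 43 genes, in 37 entries, and those of chains that the results turn on are shown 5′ to 3′ with motif matches in capitals. The letters of 3 short motifs were searched on both strands of the 250 bases before the start. CCAAT was held by 12 of 37 collagen entries (32.4%) and by 34.0% of all 33469 promoters. For TATAAA the figures were 4 entries (10.8%) and 12.9%, and for GGGCGG they were 20 entries (54.1%) and 30.5%. No entry was available for Col1a1, Col3a1, Col2a1, Col12a1, Col14a1, Col6a2, Col22a1, Col25a1 and Col9a3. A match is a description of letters.

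Col4a1 and Col4a2 sit head to head: their annotated starts face away from each other with 76 bases between them. This stretch is shown because both chains were called with the Slc25a26 siRNA without PE and in the difference of PE effects (chr16:84885521-84885596, plus strand, Col4a1 to the right). The capitals mark GGGCGG read on the other strand, which begins 16 bases before the Col4a1 start.
Col4a2 to Col4a1: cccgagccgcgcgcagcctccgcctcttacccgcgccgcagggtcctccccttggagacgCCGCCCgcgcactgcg

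Col4a3 and Col4a4 have a like arrangement with 412 bases between starts, and Col4a5 and Col4a6 with 1414. Col1a2, a chain of type I collagen, was among the most abundant chains, and the first 100 bases of its window are shown (chr4:33518307-33518406, plus strand). The capitals mark CCAAT read on the other strand, 221 bases before the annotated start, and TATAAA, 170 bases before it.
Col1a2: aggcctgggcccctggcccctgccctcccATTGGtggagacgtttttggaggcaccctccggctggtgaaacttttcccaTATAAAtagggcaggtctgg

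Col8a1 and Col8a2, which form short-chain networks, are shown because their levels moved apart with PE (chr11:56246532-56246781 and chr5:143870519-143870768, plus strand, 250 bases each). The capitals mark GGGCGG on either strand, with 4 matches for Col8a1 and 5 for Col8a2, where the last 2 share letters.
Col8a1: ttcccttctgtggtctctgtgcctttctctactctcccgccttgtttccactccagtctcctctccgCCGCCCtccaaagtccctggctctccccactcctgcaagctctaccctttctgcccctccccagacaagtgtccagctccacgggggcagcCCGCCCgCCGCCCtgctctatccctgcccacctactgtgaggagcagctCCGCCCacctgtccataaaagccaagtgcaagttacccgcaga
Col8a2: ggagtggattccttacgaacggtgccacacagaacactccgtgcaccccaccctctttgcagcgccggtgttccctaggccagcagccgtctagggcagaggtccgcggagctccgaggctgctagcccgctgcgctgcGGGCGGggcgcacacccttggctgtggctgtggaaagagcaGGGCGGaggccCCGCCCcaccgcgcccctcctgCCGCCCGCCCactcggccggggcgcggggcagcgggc

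Col15a1, a basement membrane zone collagen, had the largest called change with the Slc25a26 siRNA alone (chr5:66297296-66297545, plus strand, 250 bases). None of the 3 motifs occurs in this window.
Col15a1: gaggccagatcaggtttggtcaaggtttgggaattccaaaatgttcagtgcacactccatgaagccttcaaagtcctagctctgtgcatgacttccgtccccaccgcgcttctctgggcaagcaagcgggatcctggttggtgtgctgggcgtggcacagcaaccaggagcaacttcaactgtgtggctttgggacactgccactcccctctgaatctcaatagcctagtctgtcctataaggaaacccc

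Collagens took a large share of all transcripts in untreated siNeg cells and a smaller one in each other group. They made up 3.62%, 3.25% and 3.33% of counts in siNeg, 1.98%, 1.98% and 1.97% in siNeg.PE, 2.11%, 1.92% and 1.99% in siSlc25a26 and 1.46%, 1.47% and 1.58% in siSlc25a26.PE. Col1a1 had the highest count of any gene in the siNeg libraries and ranked 4 in siNeg.PE, 2 in siSlc25a26 and 8 or 9 in siSlc25a26.PE. The summed level of all 43 chains was 35784, 32134 and 32535 CPM in siNeg, 20439.7, 19975 and 19598 in siNeg.PE, 19932, 18103 and 19116 in siSlc25a26 and 15701, 15434 and 16620.5 in siSlc25a26.PE. Every siNeg library lay above every other library, every siSlc25a26.PE library lay below every other one, and siNeg.PE and siSlc25a26 overlapped. The group means were 33484 ± 2002 CPM in siNeg, 20004 ± 422 in siNeg.PE, 19050.2 ± 916 in siSlc25a26 and 15918 ± 622 in siSlc25a26.PE (SD, n = 3). Relative to siNeg these are 0.597, 0.569 and 0.475. A sum over members is given with no test.

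Per transcript length, in FPKM, 8 chains averaged over 100 across all 12 libraries, 11 lay between 10 and 100, 6 between 1 and 10 and 18 under 1. The highest means over the 12 libraries were those of Col1a1 (1491 FPKM), Col3a1 (727), Col4a1 (365), Col4a2 (291), Col1a2 (267) and Col6a2 (184). The order differed between groups: in siNeg the mean of Col1a2 (417 FPKM) was above that of Col4a2 (374), and in siSlc25a26 those of Col1a2 (261) and Col4a1 (259) were both above Col4a2 (187). The last 18 include chains known for cartilage, skin or nerve, such as Col2a1, Col17a1 and Col25a1.

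The mixture of classes shifted with PE under either siRNA. Fibrillar chains held 70.3% ± 0.0586 of the summed collagen FPKM in siNeg, 60.7% ± 0.545 in siNeg.PE, 72.1% ± 0.756 in siSlc25a26 and 61.3% ± 0.37 in siSlc25a26.PE (SD, n = 3). Basement membrane chains held 16.5% ± 0.235, 26.6% ± 0.336, 16.8% ± 0.631 and 27.7% ± 0.592 in the same order. The fibrillar share was thus lower and the basement membrane share higher in both PE groups, beyond the spread between libraries. Beaded filament chains held 10.5% ± 0.295, 9.63% ± 0.153, 8.98% ± 0.148 and 8.68% ± 0.0713. Fibril-associated chains held 2.31% ± 0.0751, 2.39% ± 0.102, 1.71% ± 0.0726 and 1.7% ± 0.14, lower with the Slc25a26 siRNA than with the control siRNA.

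Summed fibrillar levels were 24836, 22349 and 22553 CPM in siNeg, 12166, 11678 and 11604 in siNeg.PE, 14422, 12848 and 13602 in siSlc25a26 and 9349, 9272 and 9993 in siSlc25a26.PE. The 4 groups did not overlap, with siNeg highest and siSlc25a26.PE lowest. Summed basement membrane levels were 6938, 6122 and 6350.1 CPM in siNeg, 6164, 6132 and 5889 in siNeg.PE, 3751, 3633 and 3801 in siSlc25a26 and 5017, 4792 and 5122 in siSlc25a26.PE. Here siNeg and siNeg.PE overlapped, siSlc25a26 was lowest, and siSlc25a26.PE lay between. Without TMM and from FPKM, every siNeg.PE sum lay below every siNeg sum, at 0.910 and 0.914 of the siNeg mean. Beaded filament sums were 2951, 2674 and 2589.8 CPM in siNeg, 1467, 1478 and 1433 in siNeg.PE, 1283, 1205 and 1274 in siSlc25a26 and 978, 982 and 1054 in siSlc25a26.PE, and fibril-associated sums were 954, 885 and 928 CPM in siNeg, 546, 571 and 565 in siNeg.PE, 419, 354 and 373 in siSlc25a26 and 282, 309 and 358 in siSlc25a26.PE. In both of these classes siNeg was highest and siSlc25a26.PE lowest, and only the fibril-associated sums of siSlc25a26 and siSlc25a26.PE overlapped. Without TMM and from FPKM these did not overlap, while from FPKM the beaded filament sums of siNeg.PE and siSlc25a26 did. The stacked bars of summed FPKM show the classes per length in each library.

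**Figure D1:**
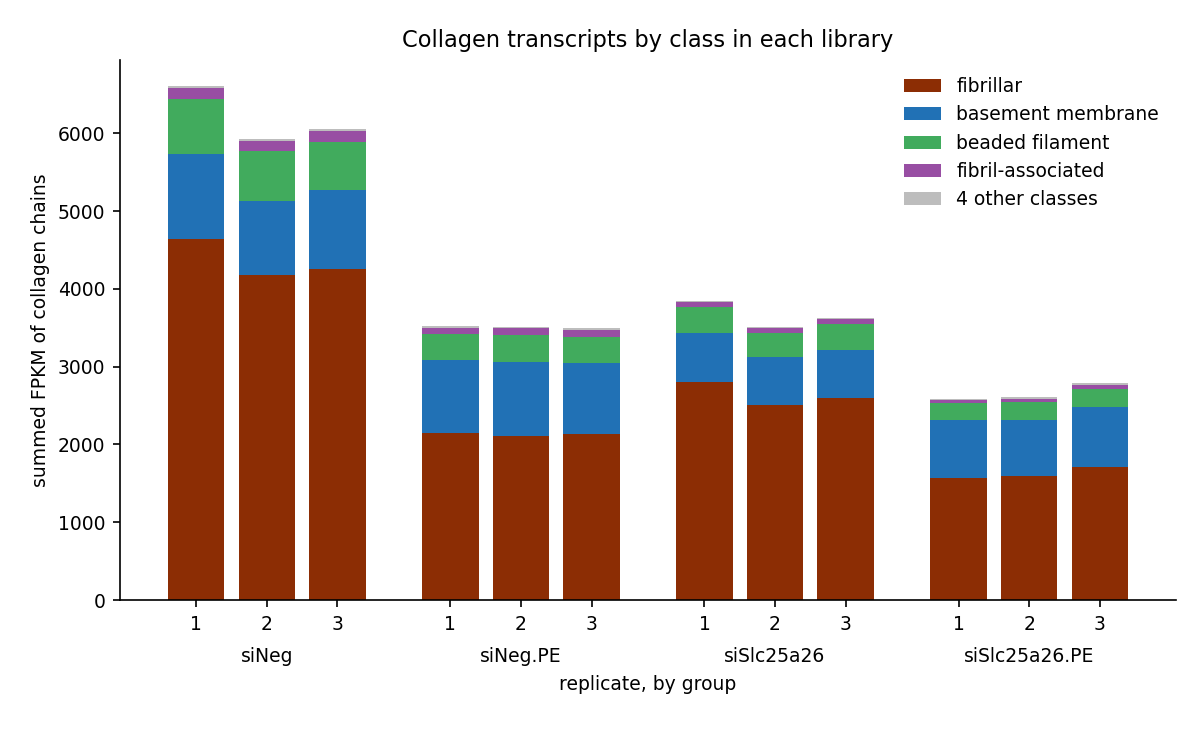
Summed FPKM of the collagen chains in each of the 12 libraries (3 replicates by group), as bars stacked by class. Every siNeg bar is above every other bar, and the fibrillar part is smaller in all libraries given PE than in any without it.

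Levels of single chains follow by class. Among fibrillar chains, Col1a1, the major chain of type I collagen, was at 14433, 12952 and 13095 CPM in siNeg, 7366, 6885 and 6802 in siNeg.PE, 8673, 7552 and 7858 in siSlc25a26 and 5477, 5338 and 5876 in siSlc25a26.PE. Col1a2, its partner chain, was at 1855, 1814 and 1956 CPM in siNeg, 1154, 1055 and 1016 in siNeg.PE, 1093, 994 and 1307 in siSlc25a26 and 797, 814 and 743 in siSlc25a26.PE. Col3a1, which forms type III homotrimers in the same fibres, was at 6449, 5761 and 5547 CPM in siNeg, 2429, 2486 and 2509.9 in siNeg.PE, 3389, 3099 and 3182 in siSlc25a26 and 1826, 1891 and 2053 in siSlc25a26.PE. For Col1a1 and Col3a1 no group overlapped another, with siNeg highest and siSlc25a26.PE lowest. For Col1a2 siNeg was also highest and siSlc25a26.PE lowest, while siNeg.PE and siSlc25a26 overlapped. Col5a1, a type V chain that nucleates thin fibrils, was at 1352, 1152 and 1249 CPM in siNeg, 790.4, 788 and 811 in siNeg.PE, 895, 839 and 899 in siSlc25a26 and 929, 908 and 967 in siSlc25a26.PE. Its siNeg libraries stood above all others, siNeg.PE was lowest, and siSlc25a26.PE lay slightly above siSlc25a26. Col5a3, another type V chain, was at 154, 133 and 133 CPM in siNeg, 95.2, 98.1 and 101 in siNeg.PE, 58.8, 58.4 and 58.1 in siSlc25a26 and 58.1, 52.9 and 52.8 in siSlc25a26.PE. It was highest in siNeg and lowest in both groups with the Slc25a26 siRNA. Col11a1, a fibril-nucleating chain of type XI, was at 44.4, 46.5 and 55.8 CPM in siNeg, 15.7, 17.5 and 21.8 in siNeg.PE, 11.9, 13.0 and 13.9 in siSlc25a26 and 7.22, 8.32 and 6.18 in siSlc25a26.PE, ordered from siNeg down to siSlc25a26.PE with no overlap between groups. Col11a2, its partner, was at 1.21, 0.896 and 0.926 CPM in siNeg, 0.441, 0.463 and 0.765 in siNeg.PE, 0.880, 0.983 and 0.729 in siSlc25a26 and 0.154, 0.313 and 0.346 in siSlc25a26.PE. At these few counts it was lowest in siSlc25a26.PE, and siNeg and siSlc25a26 overlapped.

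In the basement membrane class, Col4a1 was at 3325, 2919 and 2989.8 CPM in siNeg, 2709, 2687 and 2503 in siNeg.PE, 1654, 1536 and 1618 in siSlc25a26 and 2215, 2120.4 and 2318 in siSlc25a26.PE. Col4a2, which joins it in the most common type IV trimer, was at 2554, 2244 and 2277 CPM in siNeg, 2285, 2250.4 and 2158 in siNeg.PE, 1159, 1094 and 1158 in siSlc25a26 and 1750.3, 1693 and 1814 in siSlc25a26.PE. Both were lowest in siSlc25a26 and second lowest in siSlc25a26.PE. Col4a2 overlapped between siNeg and siNeg.PE, and Col4a1 was slightly lower in siNeg.PE than in siNeg. Col4a3, a chain of the kidney-type network, was at 8.93, 7.87 and 9.93 CPM in siNeg, 8.95, 8.77 and 11.4 in siNeg.PE, 9.37, 8.42 and 9.13 in siSlc25a26 and 6.21, 4.88 and 6.03 in siSlc25a26.PE. It was low in siSlc25a26.PE, and the other groups overlapped. Col15a1, a proteoglycan collagen that links basement membrane to fibres, was at 146, 131 and 122 CPM in siNeg, 149.7, 137 and 131 in siNeg.PE, 30.6, 31.3 and 35.3 in siSlc25a26 and 64.7, 76.4 and 68.5 in siSlc25a26.PE. The siNeg and siNeg.PE libraries overlapped at a high level, siSlc25a26 was lowest, and siSlc25a26.PE lay between.

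Among beaded filament chains, Col6a2, a core chain of type VI, was at 1137, 1067 and 1000.2 CPM in siNeg, 572, 592 and 563 in siNeg.PE, 561, 510.1 and 549.7 in siSlc25a26 and 406, 407 and 419 in siSlc25a26.PE. Its siNeg libraries were highest and its siSlc25a26.PE libraries lowest. Col6a3, the long chain of type VI, was at 607, 541 and 573 CPM in siNeg, 289, 292 and 301 in siNeg.PE, 145, 143 and 153 in siSlc25a26 and 140.4, 144 and 169.9 in siSlc25a26.PE. It was highest in siNeg, intermediate in siNeg.PE and low in both groups with the Slc25a26 siRNA, which overlapped.

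Among fibril-associated chains, Col12a1, which binds type I fibres, was at 178, 159 and 178 CPM in siNeg, 128, 138 and 122 in siNeg.PE, 56.9, 51.3 and 54.0 in siSlc25a26 and 64.8, 74.3 and 96.2 in siSlc25a26.PE. It was lowest in siSlc25a26 and above it in siSlc25a26.PE. Col14a1, also bound to type I fibres, was at 674, 645 and 659.6 CPM in siNeg, 344, 355 and 371 in siNeg.PE, 312, 257 and 275 in siSlc25a26 and 173, 189 and 215 in siSlc25a26.PE, with no overlap between groups and siNeg highest. Col19a1 was at 0.294, 0.584 and 0.889 CPM in siNeg, 1.00, 1.97 and 2.25 in siNeg.PE, 0.338, 0.524 and 0.0694 in siSlc25a26 and 1.47, 1.48 and 2.65 in siSlc25a26.PE, higher in both PE groups at a level of few counts. Col22a1, a chain of tissue junctions such as those of muscle and tendon, was at 2.43, 1.75 and 2.30 CPM in siNeg, 0.682, 0.348 and 0.201 in siNeg.PE, 4.81, 4.69 and 4.06 in siSlc25a26 and 1.12, 0.664 and 0.691 in siSlc25a26.PE, lower in both PE groups and highest in siSlc25a26.

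In the small classes, Col8a2 was at 46.3, 43.6 and 46.5 CPM in siNeg, 20.2, 21.4 and 24.3 in siNeg.PE, 12.8, 14.9 and 19.9 in siSlc25a26 and 9.76, 7.77 and 6.65 in siSlc25a26.PE, ordered from siNeg down to siSlc25a26.PE with no overlap. Its relative Col8a1 was at 46.8, 50.8 and 56.8 CPM in siNeg, 64.5, 83.0 and 69.3 in siNeg.PE, 34.4, 37.3 and 33.4 in siSlc25a26 and 55.7, 63.3 and 77.9 in siSlc25a26.PE, higher in each PE group than in its group without PE. Col7a1, which forms anchoring fibrils below epithelia, was at 1.25, 1.91 and 1.26 CPM in siNeg, 2.93, 2.39 and 2.33 in siNeg.PE, 0.846, 1.21 and 1.08 in siSlc25a26 and 2.43, 1.95 and 2.54 in siSlc25a26.PE, also higher with PE. Col13a1, a transmembrane chain of cell junctions, was at 5.11, 3.19 and 4.48 CPM in siNeg, 4.41, 4.29 and 5.59 in siNeg.PE, 5.82, 5.74 and 7.60 in siSlc25a26 and 3.05, 2.38 and 2.69 in siSlc25a26.PE. It was lowest in siSlc25a26.PE, and siNeg and siNeg.PE overlapped. Col26a1 was at 2.39, 1.91 and 1.93 CPM in siNeg, 1.57, 1.08 and 1.85 in siNeg.PE, 1.05, 1.67 and 2.26 in siSlc25a26 and 0.695, 0.547 and 0.538 in siSlc25a26.PE, again lowest in siSlc25a26.PE. Col28a1 was at 0.0735, 0.312 and 0.111 CPM in siNeg, 0.401, 0.463 and 0.765 in siNeg.PE, 0.406, 0.197 and 0.312 in siSlc25a26 and 0.386, 0.313 and 0.154 in siSlc25a26.PE, which is 2 to 19 counts a library, so its values are coarse. A floor of 3 counts corresponds to 0.105 to 0.121 CPM without TMM, whereas the levels above are after TMM. Floors cover counting error only.

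**Figure D2:**
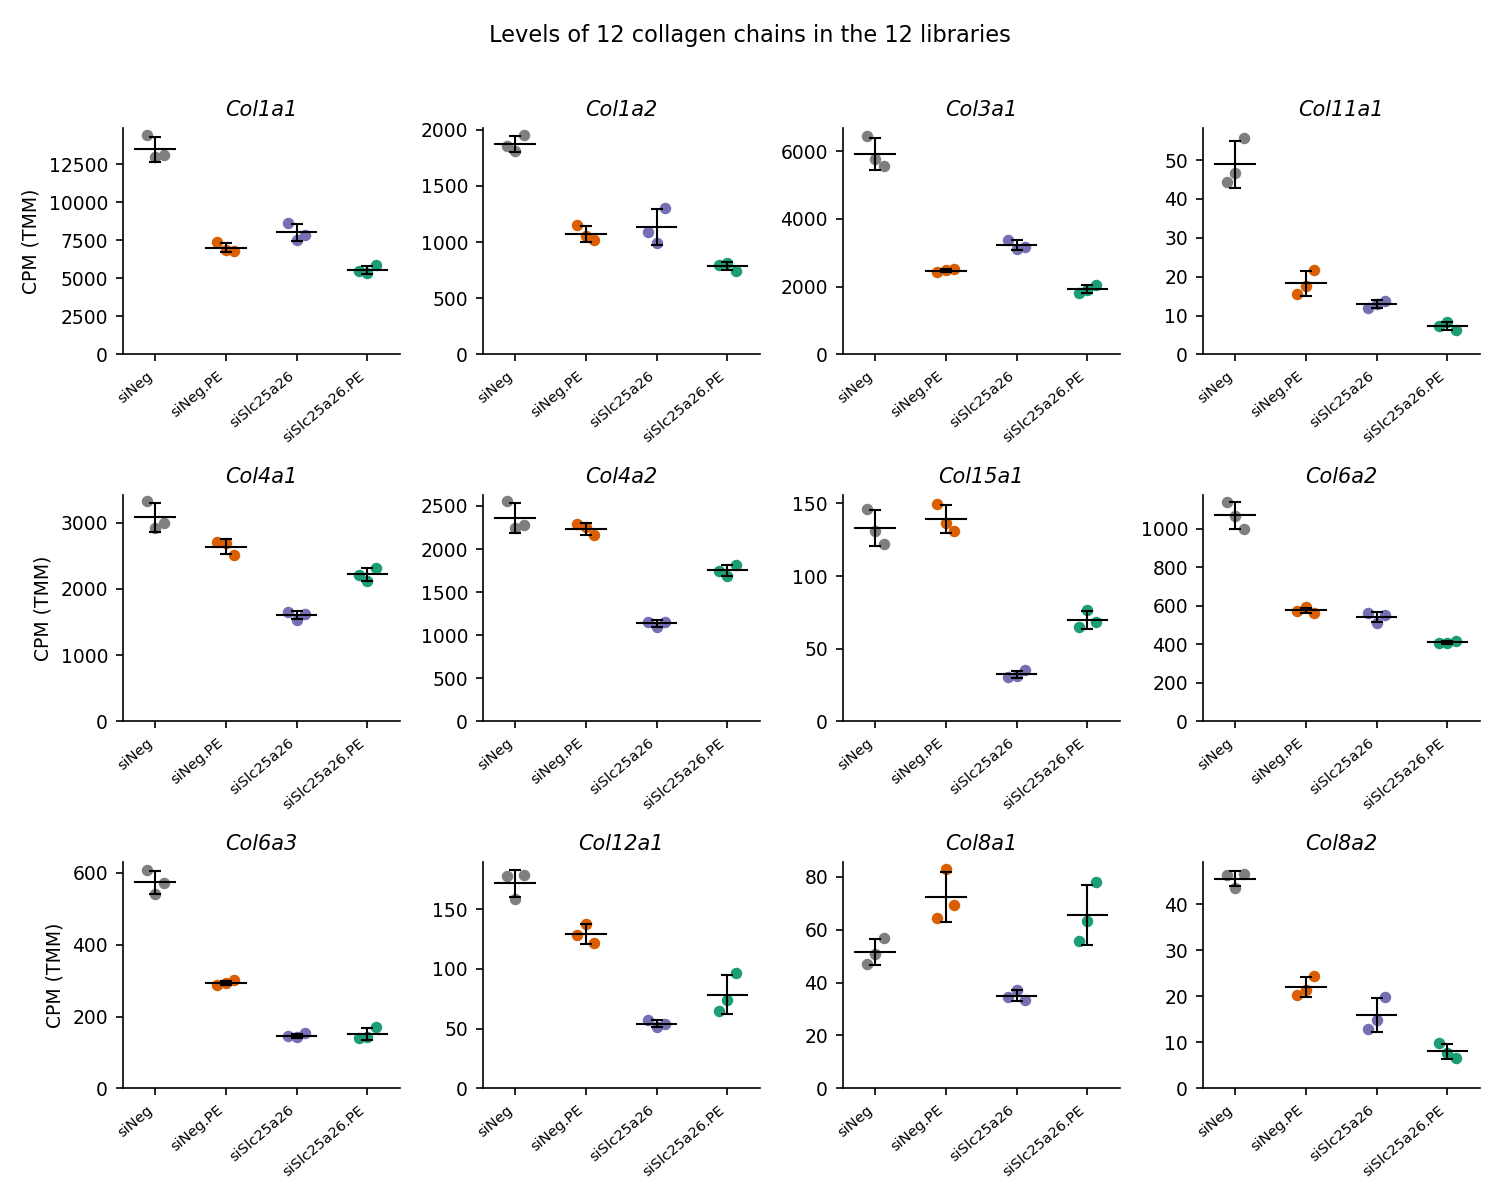
Level (CPM after TMM, linear axes from 0) of 12 collagen chains by group. Points are the 12 libraries and lines are group means with SD (n = 3). Col11a1 and Col8a2 step down from siNeg to siSlc25a26.PE, while Col15a1 is low in siSlc25a26 and between in siSlc25a26.PE.

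A chain was called when edgeR gave a fold over 1.5 either way and an adjusted p under 0.05. Low-count filtering left 34 chains tested in all 5 comparisons and 3 (Col2a1, Col20a1 and Col28a1) in some. Another 6 were tested in none: Col6a4, Col6a5, Col9a2, Col10a1, Col23a1 and Col25a1, whose highest count in any library was 11.5. The 4 comparisons of groups share libraries, so each one's own values are given. In these comparisons every called chain had groups of libraries that did not overlap. The same held for some chains that were not called, such as Col18a1 and Col4a4 with PE in siNeg. The share over all genes was not computed, so this adds no support to a call. The map of log2 fold changes shows every tested chain.

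**Figure D3:**
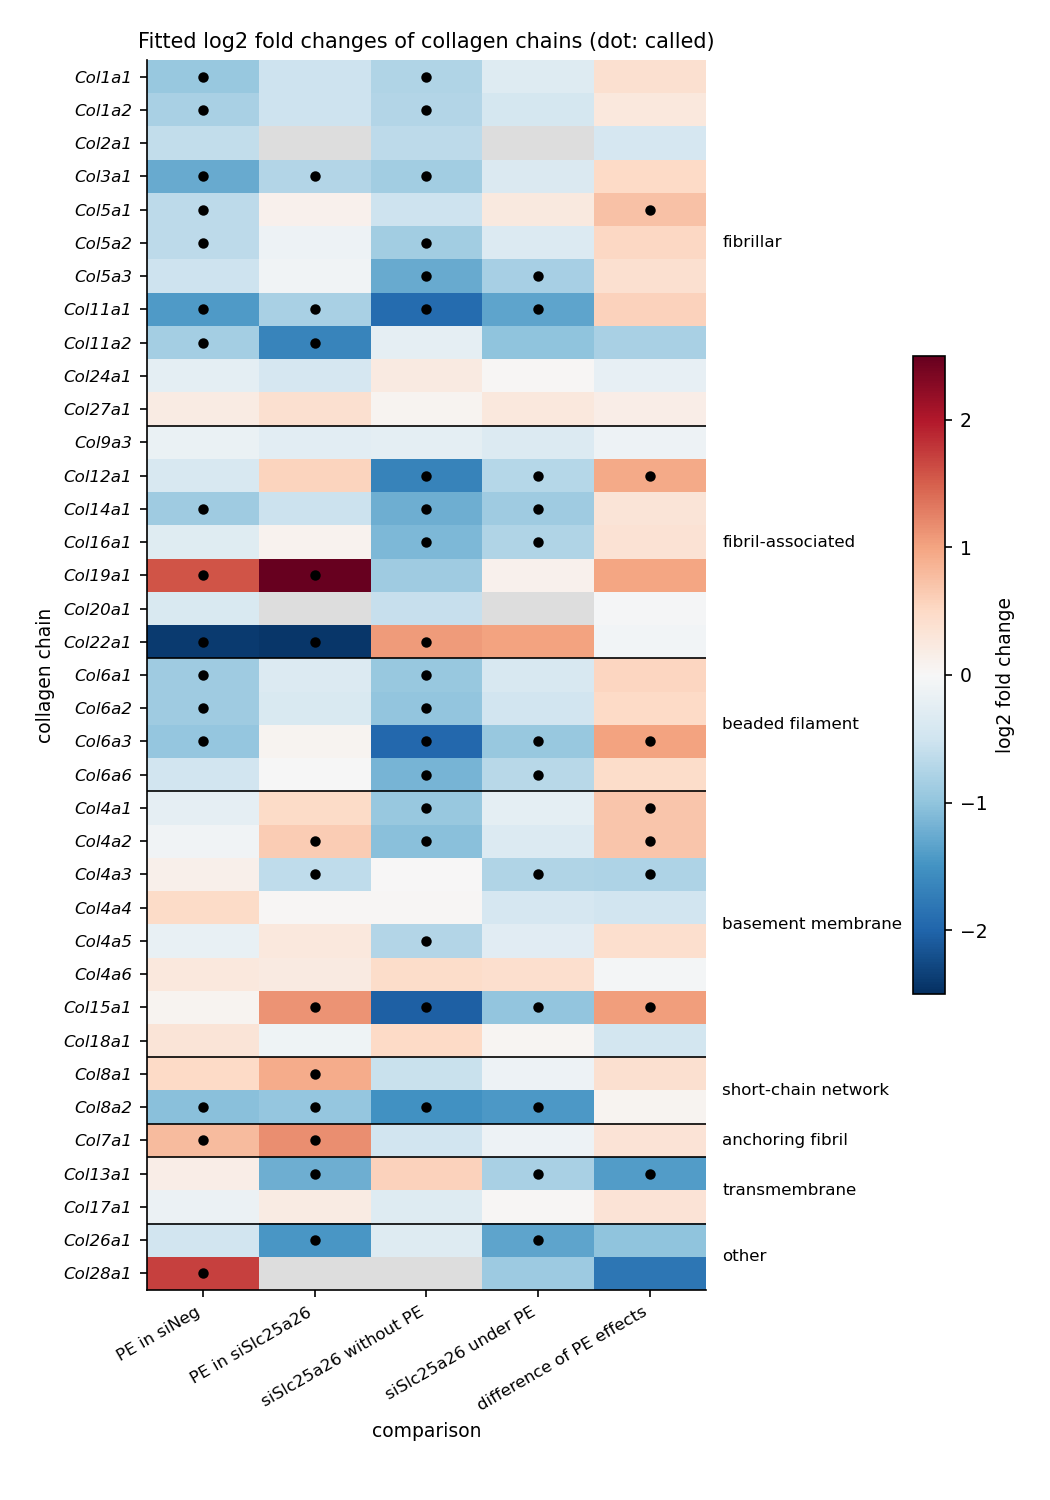
Fitted log2 fold change (colour) of each of 37 tested collagen chains, grouped by class, in the 4 comparisons of groups and in the difference of PE effects. Dots mark called chains, grey cells were not tested, and the darkest colours stand for the ends of the scale or beyond, with 7 of 11 fibrillar chains called lower with PE in siNeg.

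With PE in siNeg cells, 7 of 11 fibrillar chains and 3 of 4 tested beaded filament chains fell, while none of the 8 basement membrane chains passed both the fold and the p threshold in edgeR. Col3a1 fell to less than the level of any siNeg library (log2 fold change -1.26, SE 0.0717, adjusted p = 1.39e-05 by edgeR quasi-likelihood). Col1a1 fell less (log2 fold change -0.94, SE 0.0680, adjusted p = 3.50e-05), and Col8a2 fell as well (log2 fold change -1.04, SE 0.0865, adjusted p = 6.58e-05). Of 37 chains tested, 13 fell (35.1%) and 3 rose, where 8.24% of the 13719 genes tested fell and 12.4% rose. The median log2 fold change of the chains was -0.38, and that of all genes was 0.00. On the FPKM scale limma called 11 lower and 0 higher with log2(FPKM + 1), where 4 chains were higher at an unadjusted p under 0.05, and DESeq2 called 12 lower and 2 higher. The share of calls that were higher was 18.8% by edgeR and 7.69% by limma on log2(FPKM + 0.1).

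By class, 7 of 11 fibrillar chains fell with PE in siNeg. Besides Col3a1 and Col1a1 these were Col11a1 (-1.42), Col11a2 (-0.86), Col1a2 (-0.80), Col5a1 (-0.65) and Col5a2 (-0.65), given as log2 fold changes. All 3 main type VI chains fell, Col6a3 (-0.96), Col6a1 (-0.90) and Col6a2 (-0.89). Among 7 fibril-associated chains Col19a1 rose (log2 fold change 1.56, SE 0.433, adjusted p = 0.0175 by edgeR), and Col22a1 (-2.39) and Col14a1 (-0.88) fell. Of the 8 basement membrane chains edgeR, DESeq2 and limma each called 0 in either direction, with 2 higher and 2 lower at an unadjusted p under 0.05. Their log2 fold changes ran from -0.22 (Col4a1) to 0.48 (Col4a4), and the median was 0.10. Col4a4, Col18a1 (0.33) and Col4a1 had adjusted p = 0.00309, 0.00523 and 0.0260 by edgeR at folds under the threshold. Col7a1 (0.80) and Col28a1 (1.71) rose, Col28a1 from 2, 8 and 3 counts in siNeg to 10, 12 and 19 in siNeg.PE.

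The 21 chains not called with PE in siNeg had log2 fold changes from -0.62 to 0.49. Some calls were lost without a single library: without siNeg replicate 1, log2 fold changes were -0.70 for Col11a2 (adjusted p = 0.156 by edgeR), 0.70 for Col7a1 (0.0622), 1.37 for Col28a1 (0.0948) and, just under the fold threshold, -0.58 for Col5a1 (0.000769). Col11a2 also lost its call without siNeg replicate 2 (-0.94), siNeg replicate 3 (-0.92), siNeg.PE replicate 1 (-0.71) and siNeg.PE replicate 2 (-0.74). Col28a1 lost it without siNeg replicate 3 (1.498), siNeg.PE replicate 2 (1.81) and siNeg.PE replicate 3 (1.38). Col19a1 lost it without siNeg replicate 2 (1.55), siNeg.PE replicate 2 (1.47) and siNeg.PE replicate 3 (1.33), and Col7a1 without siNeg.PE replicate 1 (0.70). Limma on log2(FPKM + 1) did not call Col22a1, Col19a1, Col11a2, Col7a1 and Col28a1. On log2(FPKM + 0.1) it did not call Col19a1, Col11a2 and Col7a1. DESeq2 did not call Col11a2 (-0.86) and Col28a1 (1.74), and edgeR without a low-count filter did not call Col11a2 (-0.86). When 10 counts were required in every library, Col28a1, Col19a1 and Col22a1 were not tested and 1 chain, Col7a1, was called higher.

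Without PE, the Slc25a26 siRNA was followed by lower levels across most collagen classes, with Col15a1 falling below every siNeg library (log2 fold change -2.04, SE 0.0822, adjusted p = 1.47e-07 by edgeR). Col6a3 (log2 fold change -1.96, SE 0.0585, adjusted p = 1.70e-08) and Col11a1 (log2 fold change -1.92, SE 0.103, adjusted p = 1.18e-06) fell nearly as far. Of 36 chains tested, 18 fell (50.0%) and 1 rose, where 7.20% of the 13829 genes tested fell and 8.92% rose. The chains had a median log2 fold change of -0.73, against 0.015 for all genes.

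By class, 6 of 11 fibrillar chains fell with the Slc25a26 siRNA without PE, Col11a1 (-1.92), Col5a3 (-1.26), Col3a1 (-0.88), Col5a2 (-0.86), Col1a1 (-0.75) and Col1a2 (-0.73). In the basement membrane class 4 of 8 fell, Col15a1 (-2.04), Col4a2 (-1.05), Col4a1 (-0.94) and Col4a5 (-0.72), while Col18a1 was at 0.49, Col4a3 at 0.01 and Col4a4 at 0.04, none of them called by edgeR. Limma called Col18a1 higher on both FPKM scales. All 4 tested beaded filament chains fell, Col6a3 (-1.96), Col6a6 (-1.17), Col6a2 (-0.98) and Col6a1 (-0.95). Among 7 fibril-associated chains Col12a1 (-1.66), Col14a1 (-1.23) and Col16a1 (-1.13) fell, and Col22a1 rose (log2 fold change 1.06, SE 0.165, adjusted p = 0.000927 by edgeR). Col8a2 fell (-1.52), and the 17 chains not called ran from -0.90 to 0.58. No called chain lost its edgeR call when any single library was left out. Limma on log2(FPKM + 1) did not call Col6a6 (-0.42) and Col22a1 (0.39). Col13a1 was called higher by edgeR with the replicate block and in the fit of all 12 libraries, and by limma on log2(FPKM + 0.1). It also gained a call without siNeg replicate 1, siNeg replicate 3 or siSlc25a26 replicate 2, and Col8a1 without siNeg replicate 1 or siSlc25a26 replicate 2.

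With PE in cells that had the Slc25a26 siRNA, collagen chains went both ways. Col15a1 rose (log2 fold change 1.13, SE 0.0828, adjusted p = 7.51e-06 by edgeR), and so did Col4a2 (log2 fold change 0.64, SE 0.0488, adjusted p = 9.14e-06). Col3a1 fell (log2 fold change -0.73, SE 0.0598, adjusted p = 1.48e-05). Of 34 chains tested 8 fell (23.5%) and 5 rose, where 10.4% of the 13776 genes tested fell and 10.1% rose. The median log2 fold change of the chains was -0.10, and that of all genes was -0.003. Both PE groups were high in Slc25a26, so these are the libraries labelled siSlc25a26.PE against siSlc25a26.

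In the fibrillar class 3 of 10 fell with PE in siSlc25a26, Col11a2 (-1.64), Col11a1 (-0.82) and Col3a1 (-0.73), while Col1a1 and Col1a2 were each at -0.51 and not called by edgeR. Of 8 basement membrane chains Col15a1 and Col4a2 rose, Col4a3 fell (-0.63), and Col4a1 was at 0.49. The 4 tested beaded filament chains had values from -0.38 (Col6a2) to 0.06 (Col6a3), and edgeR, DESeq2 and limma each called 0 of them, with 2 lower at an unadjusted p under 0.05. Among 6 fibril-associated chains Col19a1 rose (2.57) and Col22a1 fell (-2.43). Col7a1 (1.16) and Col8a1 (0.92) rose, and Col26a1 (-1.46), Col13a1 (-1.22) and Col8a2 (-0.96) fell. The 21 chains not called ran from -0.53 to 0.56. Col11a2 (26, 30 and 21 counts in siSlc25a26, 4, 8 and 9 in siSlc25a26.PE) and Col19a1 (10, 16 and 2, then 38, 38 and 69) were not tested when 10 counts were required in every library.

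On the FPKM scale the share of calls that were higher with PE in siSlc25a26 was 22.2% with log2(FPKM + 1) and 26.7% with log2(FPKM + 0.1), against 38.5% on counts, and the median of all genes was -0.125 and -0.171. On these scales limma called Col1a1 (-0.68), Col1a2 (-0.71) and Col14a1 lower as well and did not call Col4a2 (0.47). With log2(FPKM + 1) it also left Col19a1, Col11a1, Col11a2, Col26a1, Col4a3 and Col7a1 uncalled. Without siSlc25a26.PE replicate 2 Col4a3 was at -0.53 (adjusted p = 0.00925 by edgeR), under the fold threshold, and without siSlc25a26 replicate 2 Col1a2 was called at -0.59. Col12a1 was called higher without siSlc25a26.PE replicate 1, siSlc25a26.PE replicate 2 or siSlc25a26 replicate 1, and Col14a1 lower without siSlc25a26.PE replicate 3 or siSlc25a26 replicate 2.

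Between both groups given PE, the libraries labelled siSlc25a26.PE had lower levels of chains from every class except anchoring fibrils, whose Col7a1 was at -0.13 and not called. Col8a2 (log2 fold change -1.44, SE 0.137, adjusted p = 7.28e-05 by edgeR) and Col11a1 (log2 fold change -1.32, SE 0.148, adjusted p = 0.000183) fell, and Col15a1 fell too (log2 fold change -0.98, SE 0.0861, adjusted p = 4.31e-05). Of 35 chains tested 12 fell (34.3%), where 8.10% of the 13671 genes tested fell. In the groups' own fit edgeR, DESeq2 and limma on log2(FPKM + 1) each called 0 higher, with 4, 3 and 2 chains higher at an unadjusted p under 0.05, while 7.71% of all genes tested rose. In edgeR 1 chain, Col22a1, was called higher with a replicate block, in a fit of all 12 libraries, and without siNeg.PE replicate 1. The chains had a median log2 fold change of -0.40, against -0.003 for all genes.

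Type I and III chains were not among those called under PE, with Col1a2 (-0.44), Col3a1 (-0.35) and Col1a1 (-0.32). In the fibrillar class 2 of 10 fell, Col11a1 and Col5a3 (-0.83). Of 8 basement membrane chains Col15a1 (-0.98) and Col4a3 (-0.75) fell, and Col4a1 and Col4a2 were at -0.24 and -0.34. Beaded filament chains Col6a3 (-0.95) and Col6a6 (-0.69) and fibril-associated chains Col14a1 (-0.88), Col16a1 (-0.74) and Col12a1 (-0.71) fell. Col26a1 (-1.32) and Col13a1 (-0.80) fell as well, and the 23 chains not called ran from -1.01 to 1.01. Without siSlc25a26.PE replicate 1 Col12a1 was at -0.58 (adjusted p = 0.00477 by edgeR) and Col6a6 at -0.53 (adjusted p = 0.0249), both short of the fold threshold. Limma on log2(FPKM + 1) did not call Col6a6, Col13a1, Col26a1 and Col4a3.

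Whether PE acted differently with either siRNA was tested as the difference of the PE effects, siSlc25a26 minus siNeg, over all 12 libraries. The PE effect was more positive in siSlc25a26 for Col15a1 (log2 fold change 1.04, SE 0.120, adjusted p = 0.000366 by edgeR), Col6a3 (log2 fold change 1.00, SE 0.0974, adjusted p = 0.000153) and Col12a1 (log2 fold change 0.94, SE 0.161, adjusted p = 0.00311). It was more negative for Col13a1 (log2 fold change -1.40, SE 0.265, adjusted p = 0.00557) and Col4a3 (log2 fold change -0.78, SE 0.188, adjusted p = 0.0198). Of 37 chains tested 6 were higher and 2 lower, where 2.18% of the 14097 genes tested were higher and 3.34% lower. The other higher chains were Col5a1 (0.74), Col4a2 (0.70) and Col4a1 (0.69). Col11a1 (0.58) was called higher with the replicate block, without siNeg.PE replicate 3, by DESeq2 and by limma on log2(FPKM + 1). The median over the chains was 0.34, and over all genes it was -0.045.

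For Col15a1, Col4a1 and Col4a2 the level was lower in siSlc25a26 than in siNeg before PE, and in every library labelled siSlc25a26.PE it lay above siSlc25a26 and below siNeg.PE, though Col4a1 was not called with PE. Col6a3 and Col5a1 fell with PE in siNeg and were at 0.06 and 0.11 with PE in siSlc25a26. The differences for Col1a1 (0.41), Col1a2 (0.27) and Col3a1 (0.51) were not called. Without siSlc25a26.PE replicate 2 the difference for Col4a3 was -0.68 (adjusted p = 0.0564 by edgeR), and limma on log2(FPKM + 1) did not call it (-0.49). On log2(FPKM + 0.1) in limma the share of called chains that were higher was 55.6% against 75.0% on counts, and Col4a1, at 0.58 on log2(FPKM + 1), was not called. Limma called Col18a1 and Col4a4 lower on both scales. The median of all genes was -0.109 on log2(FPKM + 1) and -0.143 on log2(FPKM + 0.1). The plot of both PE effects sets the chains against the line of equal effects.

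**Figure D4:**
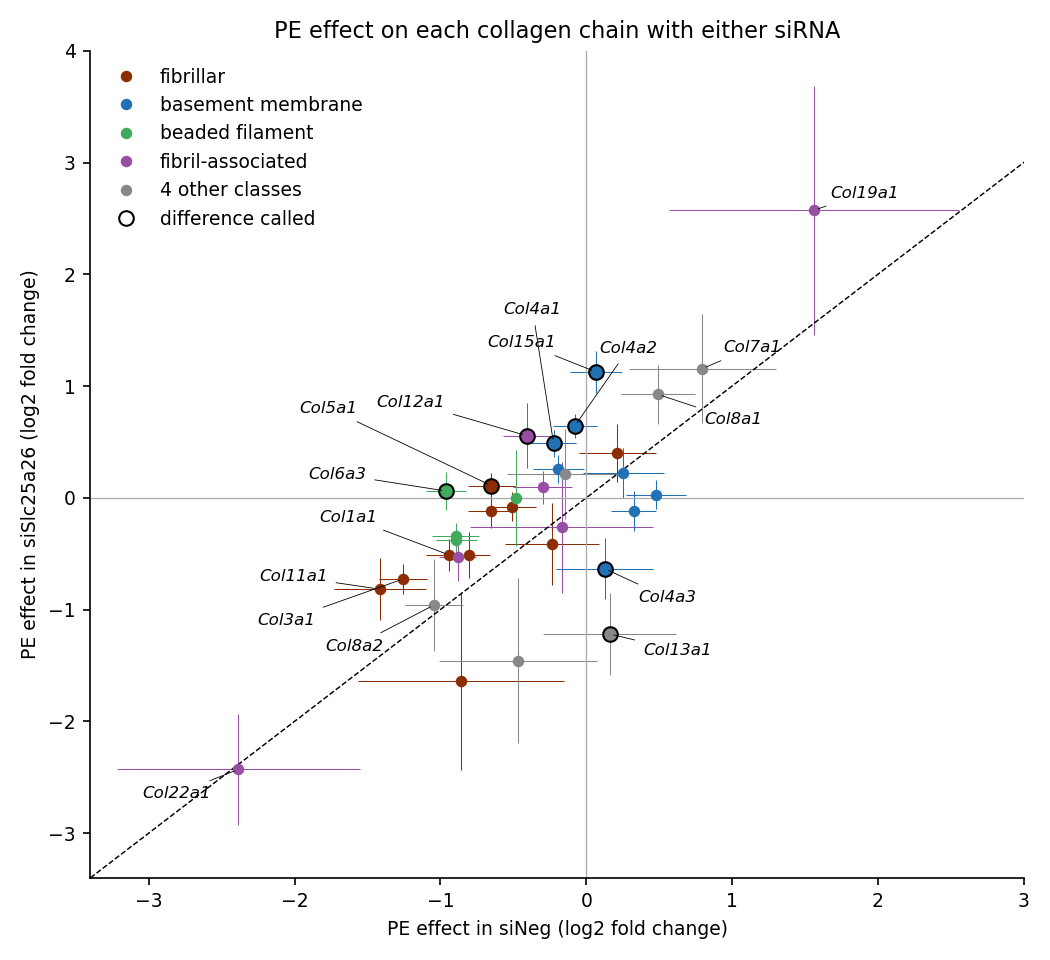
Log2 fold change with PE in siNeg (horizontal) and in siSlc25a26 (vertical) for the 34 collagen chains tested in both, with bars for 95% confidence intervals and a dashed line of equal effects. Ringed points are the chains whose difference was called, and Col15a1, Col6a3, Col12a1, Col5a1, Col4a1 and Col4a2 lie above the line.

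Ratios between pairs of chains, of the same or of related proteins, were computed per length from FPKM in each library, as mean ± SD (n = 3), and with no test. Col1a1 over Col1a2 was 5.72 ± 0.442 in siNeg, 5.18 ± 0.132 in siNeg.PE, 5.69 ± 0.743 in siSlc25a26 and 5.80 ± 0.594 in siSlc25a26.PE. Col6a1 over Col6a2 was 0.909 ± 0.0286, 0.906 ± 0.0274, 0.932 ± 0.0242 and 0.955 ± 0.0229 in the same order. For both pairs the range of ratios in siNeg overlapped that of every other group, while the levels of the chains moved. Both PE groups were narrowly apart. Col1a1 over Col1a2 reached 5.312 in siNeg.PE and began at 5.343 in siSlc25a26.PE, and Col6a1 over Col6a2 reached 0.9378 and began at 0.9384. From counts the Col1a1 over Col1a2 ranges of these groups overlapped. Col1a1 over Col3a1 was 1.86 ± 0.0556, 2.32 ± 0.14, 2.03 ± 0.0517 and 2.36 ± 0.0752, higher in both PE groups. Col8a1 over Col8a2 was 0.953 ± 0.0421, 2.74 ± 0.383, 2.04 ± 0.498 and 7.27 ± 2.43, so that chains near parity in siNeg stood far apart in siSlc25a26.PE. Col4a1 over Col4a2 was 1.28 ± 0.00608, 1.16 ± 0.0178, 1.39 ± 0.0159 and 1.24 ± 0.0125, lower with PE under either siRNA. Col4a1 over Col4a5 was 11.6 ± 1.2, 11.3 ± 1.06, 9.90 ± 0.299 and 11.6 ± 0.252.

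The deposited values are estimated counts, and some were not whole numbers. That held in all 12 libraries for 7 chains: Col4a1, Col4a2, Col1a2, Col4a4, Col15a1, Col4a3 and Col20a1. The sum of Col4a1 and Col4a2 was whole, within rounding of the second decimal, in 12 of 12 libraries, while neither count was, so the separate levels of these neighbours are less certain than their sum. For Col4a3 and Col4a4 the sum was whole in 2.

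Genes that make, process, bind and degrade collagen were taken from fixed lists. With PE in siNeg, where 8.24% of all genes tested fell and 12.4% rose, 2 of 26 genes of biosynthesis and secretion fell, a share near that background. They were P4ha2 (-1.13) and P4ha3 (-1.02), subunits of prolyl 4-hydroxylase, which stabilises the helix, given here as log2 fold changes. Of 11 genes for propeptide processing and crosslinking 5 fell, among them Adamts14 (-0.88), Loxl4 (-0.79), Lox (-0.74) and Adamts3 (-0.63), where Lox and Loxl4 crosslink fibres and the Adamts enzymes trim procollagen. Among 8 receptors the integrin chain Itga1 rose (0.75) and Itga10 (-1.03) and Itga11 (-0.93) fell. Among 10 turnover genes the protease inhibitor Timp1 rose (1.33), and 3 fell, Mmp9 (-1.06), Timp3 (-0.61) and Mmp15 (-0.59). Of 16 basement membrane partners 3 rose, among them Lamb3 (2.52) and Nid2 (0.63), and 4 fell, Lama3 (-1.40), Agrn (-0.82), Nid1 (-0.70) and Pxdn (-0.61).

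With the Slc25a26 siRNA without PE, where 7.20% of all genes tested fell and 8.92% rose, 3 of 26 biosynthesis genes fell, Fkbp10 (-0.83), P4ha2 (-0.68) and P3h3 (-0.61), and Tmem38b rose (0.80). In processing and crosslinking 4 of 11 fell, Adamts2 (-1.49), Pcolce (-0.76), Loxl2 (-0.73) and Adamts14 (-0.70), and Loxl4 rose (0.76). Of 8 receptors Itga11, a receptor for fibrillar collagen, fell (-1.03). In turnover 5 of 10 fell, among them the collagenolytic proteases Mmp9 (-1.73), Mmp2 (-1.16) and Mmp14 (-0.71) and the inhibitor Timp4 (-0.94). Basement membrane partners went both ways: 6 of 16 fell, among them Lamc3 (-2.35), Lama3 (-2.20), Nid1 (-1.28) and Nid2 (-0.98), and 3 rose, among them Agrn (1.06) and Lamb3 (0.75). Nidogens link laminin to type IV collagen.

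With PE in siSlc25a26, where 10.4% of all genes tested fell and 10.1% rose, 1 of 26 biosynthesis genes rose, a share below that background. It was the prolyl 3-hydroxylase P3h2 (1.36). In processing Tll1 rose (0.63) and Adamts3 fell (-0.80) among 11. Of 7 receptors 3 rose, Itga2 (1.54), Itgb1 (1.06) and Itga1 (1.03), which are the chains of the main collagen-binding integrins. In turnover Timp1 rose (1.30) and Mmp15 fell (-0.85) among 9. Of 15 basement membrane partners 6 rose, among them Lamb3 (2.52), Lamc1 (1.14) and Lama4 (0.85), and Agrn fell (-0.74).

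Under PE, where 8.10% of all genes tested fell and 7.71% rose, the libraries labelled siSlc25a26.PE had 3 of 26 biosynthesis genes higher, P3h2 (1.24), Crtap (0.80) and Tmem38b (0.63). Of 11 processing genes Adamts2 (-1.08), Adamts3 (-0.73) and Pcolce (-0.61) fell and Loxl4 rose (1.09). The receptor Ddr1 rose (0.64) among 7, and 4 of 10 turnover genes fell, Timp4 (-2.15), Mmp9 (-1.21), Mmp2 (-0.97) and Ctsk (-0.92). Of 16 basement membrane partners 4 rose, among them Agrn (1.14), Lamb3 (0.74) and Lamc1 (0.65), and 4 fell, Lamc3 (-2.56), Nid2 (-0.90), Lama2 (-0.64) and Nid1 (-0.60). The difference of PE effects, called higher for 2.18% of all genes tested, was higher for P3h2 (0.94) and P4ha2 (0.64) in biosynthesis, Lox (0.71) in crosslinking, Itga11 (0.70) among receptors and Hspg2 (0.97), Lamc1 (0.71), Nid1 (0.66) and Pxdn (0.60) among basement membrane partners. The 10 turnover genes had a median difference of 0.06.

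Markers of the cells that could be present were summed in each library as well. A marker is given as at or under the floor only where that held in every library. Cardiomyocyte markers (10 of 10 in the tables, Tnnt2 most abundant, none at or under the floor) were at 30820.2, 31876 and 32652 CPM in siNeg, 44007, 42359 and 43839 in siNeg.PE, 29632, 30379 and 34074 in siSlc25a26 and 50826, 46852 and 47231 in siSlc25a26.PE. Their sums were higher in both PE groups. With PE, 5 of 10 were called higher in siNeg (12.4% of all genes tested) and 5 of 10 in siSlc25a26 (10.1%). Myh7 was the largest part, its mean going from 9581 to 17617 CPM in siNeg and from 11858 to 23438 in siSlc25a26. Means went the other way for Myh6 (7019 to 5036 and 4438 to 4024) and Pln (3254 to 3082 and 3346 to 2302), with 0 of 10 called lower. Myh6 also fell (-0.66) with the siRNA without PE. Fibroblast markers other than collagens (10 of 10, Postn most abundant, none at or under the floor) were at 1523, 1716 and 1577 CPM in siNeg, 1529, 1796 and 1692 in siNeg.PE, 961, 900.2 and 913 in siSlc25a26 and 699, 849.5 and 971 in siSlc25a26.PE. Both groups with the Slc25a26 siRNA were low, and siNeg and siNeg.PE overlapped. The summed fibroblast level of siNeg.PE was 1.04 of siNeg while collagens were at 0.597. In siSlc25a26 the fibroblast sum was 0.576 of siNeg and that of collagens 0.569. Over all genes tested, 8.24% fell with PE in siNeg, 10.4% with PE in siSlc25a26, 7.20% with the siRNA without PE and 8.10% under PE. Of the fibroblast genes 4 of 10 fell with PE in siNeg, among them Mfap5 (-2.86) and Dpt (-1.07). With the siRNA 6 of 10 fell without PE, among them Dpt (-1.39), Mfap5 (-1.37), Thy1 (-1.36) and Fbln2 (-1.21). The other 4 were not called, among them Tcf21 (mean 35.7 CPM in siNeg and 47.0 in siSlc25a26) and Pdgfra (69.3 and 67.2). Under PE 6 of 9 fell, among them Postn (-1.35), Dpt (-1.26), Thy1 (-0.89) and Dcn (-0.88), and Tcf21 rose (0.61). With PE in siSlc25a26 1 of 9 fell, Dpt (-0.93). The part of fibroblasts in the collagen results was not tested, and fewer cells of a type and less RNA per cell cannot be told apart in these bulk samples.

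Mural and smooth muscle markers (10 of 10, Des most abundant, none at or under the floor) were at 6006, 5761 and 5713 CPM in siNeg, 5304, 4967 and 4525 in siNeg.PE, 4113, 4049.7 and 4289.8 in siSlc25a26 and 6118, 5797 and 5782 in siSlc25a26.PE. On this scale the sums were lowest in siSlc25a26, and siNeg overlapped siSlc25a26.PE. Des, at a mean of 1239 FPKM over the 12 libraries, was a large part of the sums, so they need not follow the other markers. From FPKM the sums of siSlc25a26.PE (2720 to 2848) lay below those of siNeg (3524 to 3716), and siSlc25a26 overlapped siNeg.PE. Without TMM siSlc25a26.PE also lay below siNeg. In this list 5 of 10 fell with PE in siNeg (8.24% of all genes tested), among them Tagln (-1.29), Notch3 (-0.99), Acta2 (-0.86) and Myh11 (-0.79), and the pericyte marker Rgs5 rose (0.74; 12.4% of all genes tested rose). With the siRNA without PE 4 of 10 fell (7.20% of all genes), Myh11 (-1.42), Tagln (-1.12), Notch3 (-1.06) and Acta2 (-0.99). With PE in siSlc25a26 3 rose (10.1% of all genes), Cspg4 (1.12), Des (0.99) and Rgs5 (0.64), and 2 fell (10.4%), Tagln (-0.77) and Abcc9 (-0.70). Under PE 3 fell (8.10% of all genes) and Cspg4 rose (1.08). The difference of PE effects was higher for Cspg4 (1.10), Acta2 (0.88) and Notch3 (0.59).

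Macrophage markers (10 of 10, Lyz2 most abundant, Cd163 at or under the floor in every library) were at 129, 134 and 110.2 CPM in siNeg, 65.2, 67.5 and 59.8 in siNeg.PE, 59.0, 66.7 and 63.2 in siSlc25a26 and 39.4, 46.3 and 40.4 in siSlc25a26.PE. They were highest in siNeg and lowest in siSlc25a26.PE. In this list 6 of 8 fell with PE in siNeg (8.24% of all genes tested), 2 of 8 with PE in siSlc25a26 (10.4%), 6 of 8 with the siRNA without PE (7.20%) and 2 of 7 under PE (8.10%), and the difference was higher for C1qa (1.05) and Csf1r (0.82). Endothelial markers (10 of 10, Tek most abundant, none at or under the floor) were at 46.2, 49.8 and 47.3 CPM in siNeg, 38.2, 37.3 and 33.6 in siNeg.PE, 41.9, 41.3 and 43.6 in siSlc25a26 and 40.6, 41.3 and 43.5 in siSlc25a26.PE, highest in siNeg. From FPKM the sums of siNeg (10.06 to 10.91) overlapped those of siSlc25a26 (9.87 to 10.17). Of 8 endothelial genes tested 3 fell with PE in siNeg, beside the same 8.24% of all genes, Kdr (-1.08), Flt1 (-0.92) and Tie1 (-0.69), and Tie1 fell (-0.85) with the siRNA without PE. With PE in siSlc25a26 Tek rose (0.72) and Kdr fell (-0.95), and the difference was higher for Flt1 (0.70).

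Schwann cell markers (6 of 6, S100b most abundant, with Sox10 and Cdh19 among those at or under the floor in every library) were at 5.33, 4.28 and 4.22 CPM in siNeg, 5.14, 4.60 and 4.59 in siNeg.PE, 2.78, 3.28 and 2.57 in siSlc25a26 and 3.71, 4.22 and 2.69 in siSlc25a26.PE. S100b fell with the siRNA without PE (-1.79) and under PE (-2.10), and Erbb3 rose with PE in siSlc25a26 (1.29) and under PE (1.72). Epicardial and mesothelial markers (6 of 6, Upk3b most abundant, none at or under the floor) were at 54.1, 49.2 and 39.8 CPM in siNeg, 45.8, 52.7 and 45.4 in siNeg.PE, 36.9, 30.6 and 32.8 in siSlc25a26 and 30.6, 32.9 and 36.5 in siSlc25a26.PE, low in both groups with the Slc25a26 siRNA. Of these 3 of 6 fell with the siRNA without PE (7.20% of all genes tested), Msln (-1.58), Upk3b (-1.10) and Upk1b (-0.67), and 4 of 6 under PE (8.10%), Msln (-1.40), Upk3b (-1.36), Upk1b (-1.14) and Lrrn4 (-0.72). Upk1b rose with PE in siNeg (2.11) and in siSlc25a26 (1.65), where Upk3b fell (-0.84). The part of all these cell types in the collagen results was not tested. The plot of summed levels relative to siNeg sets 4 of the lists beside the collagens.

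**Figure D5:**
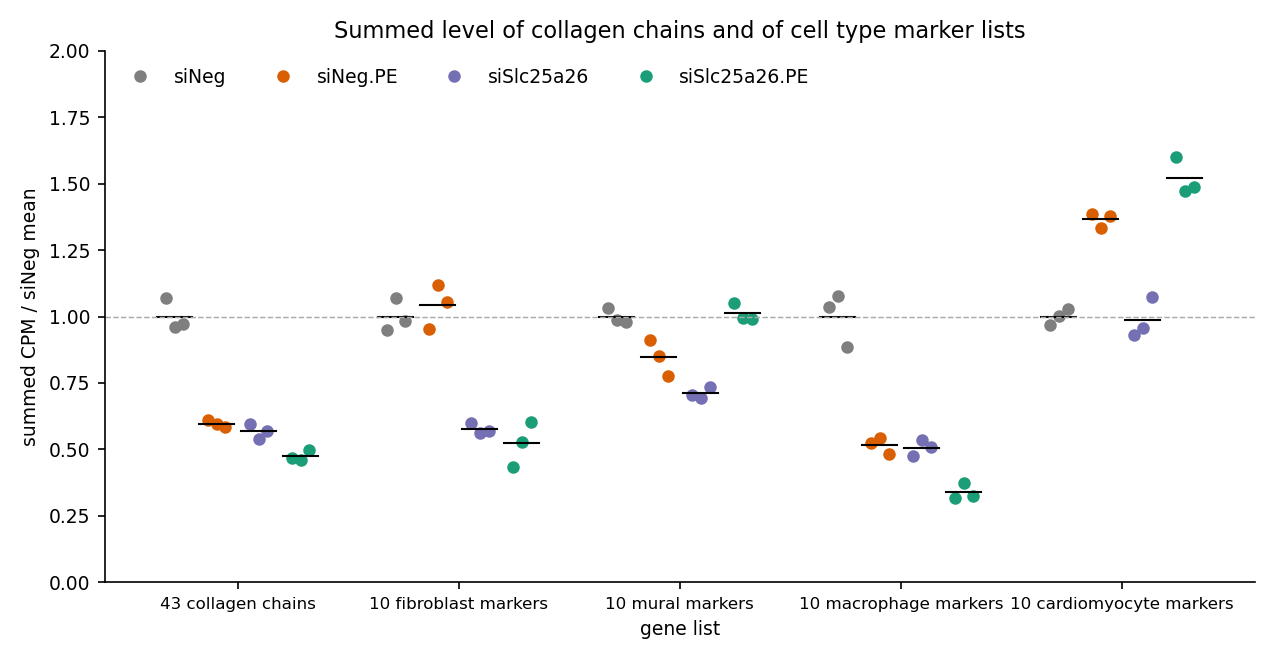
Summed CPM of the 43 collagen chains and of the fibroblast, mural, macrophage and cardiomyocyte markers in each of the 12 libraries, divided by the siNeg mean. Points are libraries and lines are group means (n = 3): fibroblast sums are low in both groups with the Slc25a26 siRNA, and cardiomyocyte sums are high in both PE groups.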

How the data were processed

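The deposited tables gave an estimated count and an FPKM for each gene and library. The planned tests assumed counts, and 20.8% to 21.9% of the values were not whole, so they were rounded. The submitters' notes name HISAT, Bowtie2 and Rnor_6.0, and the counting program, annotation and strandedness were not given in the sources used here. Each comparison was fitted with edgeR 4.0.16 (TMM, filterByExpr, quasi-likelihood F-test) on its own 6 libraries, and the difference of PE effects on all 12, with Benjamini-Hochberg adjustment over all genes tested. DESeq2 1.42.0 and limma 3.58.1 were run as alternatives. The members, classes, gene lists and marker lists were chosen with earlier results of these data known. Values in every library are given for the 6 chains with the highest mean FPKM and, per comparison, up to 6 called chains with the largest change whose higher group held 10 or more counts per library. Col8a1 was added after its values were seen. Of the other lists, up to 4 called genes per direction are named. Promoters came from RefSeq (GRCr8), matched by gene ID.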

Additional observations from a re-analysis of the deposited data

Results flagged for a closer look

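For 8 of 37 chains tested the effect of PE differed between both siRNAs by the interaction test in edgeR, 6 higher and 2 lower. Of all 14097 genes tested, 2.18% were higher and 3.34% lower. Each difference is the log2 fold change with PE in siSlc25a26 minus that in siNeg, from 3 libraries per group.

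Col13a1, a transmembrane chain, differed by -1.40 (adjusted p = 0.00557 by edgeR), with PE effects of 0.16 in siNeg and -1.22 in siSlc25a26. Col4a3, of basement membranes, differed by -0.78 (adjusted p = 0.0198 by edgeR), with effects of 0.13 and -0.63; it was not called without siSlc25a26.PE replicate 2 (-0.68) or by limma on log2(FPKM + 1) (-0.49). Col15a1 differed by 1.04 (adjusted p = 0.000366 by edgeR), with effects of 0.07 and 1.13. For the type VI chain Col6a3 the difference was 1.00 (adjusted p = 0.000153 by edgeR), with effects of -0.96 and 0.06. For the fibril-associated Col12a1 it was 0.94 (adjusted p = 0.00311 by edgeR), with effects of -0.41 and 0.56. The type V chain Col5a1 differed by 0.74 (adjusted p = 0.000345 by edgeR), with effects of -0.65 and 0.11. The type IV chains Col4a2 and Col4a1 differed by 0.70 and 0.69 (adjusted p = 0.000404 and 0.000640 by edgeR), with effects of -0.08 and 0.64 for the former and -0.22 and 0.49 for the latter. Limma on log2(FPKM + 1) did not call the Col4a1 difference (0.58). Slc25a26 itself was not lower in the libraries labelled siSlc25a26.PE, and the part of this in the differences was not tested.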

How the results depend on the processing

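Of 80 alternative counts of called chains 77 stayed within 1.5 times the reported count. The others came without a fold threshold: 22 with PE in siSlc25a26 (reported 13), 25 for the siRNA under PE (12) and 17 for the difference of PE effects (8). Leaving out 1 library in turn gave 12 to 15 chains for PE in siNeg (16), 13 to 15 for PE in siSlc25a26, 19 to 21 for the siRNA without PE (19), 10 to 13 under PE and 7 to 9 for the difference. A block for replicate number gave 16, 13, 20, 13 and 9, while correlations between libraries of the same number in both groups of a comparison ran from -0.091 to 0.215. DESeq2 called 14, 13, 19, 12 and 9. Among the 84 named results of single chains none reversed: 1249 alternatives gave the same call, 47 lost it and 19 gained it. Chains outside these results also gained calls under some alternatives.

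Of 200 alternative sums and ratios 197 moved by less than 1 SD. The ratio of the summed collagen level of siSlc25a26.PE to siSlc25a26, 0.836 ± 0.0518, was 0.751 without TMM and 0.727 from FPKM, and that of siSlc25a26.PE to siNeg.PE, 0.796 ± 0.0354, was 0.758 from FPKM. Sums of markers also depended on the scale. In siSlc25a26.PE relative to siNeg, the mural sum was 1.01 on CPM after TMM and 0.77 from FPKM. The cardiomyocyte sum was 1.52 and 1.31. These moves are not among the 197. The cause was not tested. Depth limits the 6 untested chains and those near the floor of 3 counts.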
